A study of Mus musculus with 4 samples.

Results

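The Cep genes encode centrosomal proteins, and they were examined here in the mouse retina at E19 (embryonic day 19). The family was defined by name, as every gene of the deposited table whose symbol starts with Cep followed by a digit, with 1 such gene left out by that definition. This gave 38 genes of 18471 in the table, and all 38 passed the low-count filter and were tested. Of these, 37 are protein-coding Cep genes by name, and Cep83os is a transcript that starts beside Cep83 on the other strand. The retinas came from individual embryos of 2 genotypes with 2 libraries each. One group was labelled wild-type. The other was labelled Foxn3KO, genotype Foxn3-/-, from the line C57BL/6NJ-Foxn3em1(IMPC)Bay/Mmnc, in which exon 3 of the forkhead factor gene Foxn3 is deleted. The deletion is carried in the germ line, so it is not restricted to retinal cells. The labels give no sex, litter or batch.

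Centrosomes are built around centrioles, short microtubule barrels that duplicate once per cell cycle. When a cell leaves the cycle, the older centriole docks at the membrane through its distal appendages and becomes the basal body from which a primary cilium grows. Cep proteins act along this route: some assemble new centrioles, some form the appendages, some travel in the satellites around the centrosome, and some reach the axoneme and tip of the cilium. In the retina, the photoreceptor outer segment is a modified cilium, and mutations in several Cep genes cause retinal dystrophy or Joubert syndrome.

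Total counts were 22543531 to 29360129 per library, and each member had between 437 and 5470 counts in each library. Values below are CPM, counts scaled to a common library size with TMM factors, in the order wild-type replicate 1, wild-type replicate 2, Foxn3KO replicate 1, Foxn3KO replicate 2. Foxn3 itself was counted 2421 and 2712 times in the wild-type libraries and 4181 and 3219 times in the Foxn3KO libraries, a log2 fold change of 0.54. Counts per gene do not resolve exon 3, so this value does not check the deletion, and every direction below rests on the labels. Wild-type replicate 1 stood apart by sex: it had 83073 Xist counts and 0 Ddx3y counts, whereas the other libraries had 9 to 19 and 1780 to 2317. Results were therefore also computed without it. All 18 retina marker genes were in the table, with summed levels of 4382 to 4594 CPM per library; 3 were called higher and 4 lower, with log2 fold changes from -0.51 to 0.18. Lens genes, 14 of 18 listed and 13 of them called higher, summed to 8.35 and 96.3 CPM in the wild-type libraries and to 349 and 350.02 CPM in the Foxn3KO libraries. Pigment epithelium genes, 3 of 8 tested called lower and none higher, summed to 87.2 and 115 CPM in wild-type and to 72.8 and 72.4 CPM in Foxn3KO. The part of both lists in the results below was not tested. In bulk tissue, fewer cells of a type and less RNA per cell cannot be told apart.

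The Cep family split by direction in the Foxn3KO retinas. Of the 38 members, 13 were higher and 9 lower, and 16 did not pass an adjusted p of 0.05 (edgeR quasi-likelihood test, two-sided, Benjamini-Hochberg adjustment over all 17300 genes tested). Across the table, 21.9% of genes were called, 12.3% higher and 9.66% lower, against 57.9% of the members, 34.2% higher and 23.7% lower. The changes were small: 19 of the 22 called members were under 1.5-fold, and none reached 2-fold. The median log2 fold change was -0.04 over the members and -0.00470 over all genes tested. It was 0.38 over the 13 that rose and -0.27 over the 9 that fell. The groups did not overlap in CPM for 31 members, 14 higher and 17 lower, where 60.4% of all tested genes did not overlap.

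**Figure D1:**
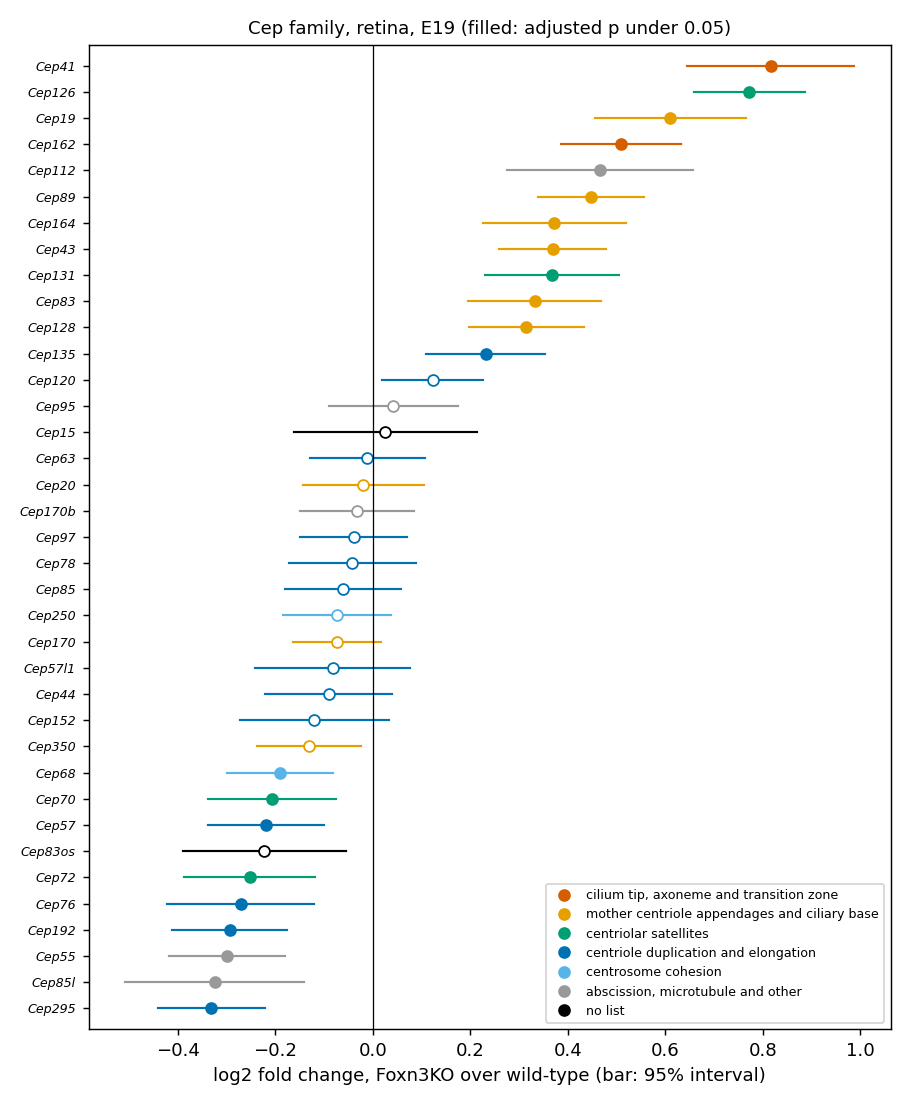
Log2 fold change of 37 Cep members, Foxn3KO over wild-type, on the x axis, with 95% intervals as bars and members on the y axis ordered by value. Colours mark the role list and filled points have an adjusted p under 0.05. The values run from -0.33 for Cep295 to 0.82 for Cep41. Near the top are the axoneme genes and 6 of 9 appendage genes, with Cep126 and Cep112 among them. The other appendage genes, Cep20, Cep170 and Cep350, have negative values. Among the lowest are 4 duplication genes, together with Cep85l and Cep55.

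Cilium tip, axoneme and transition zone genes rose together, with 3 of 3 members called higher and a median log2 fold change of 0.51. For this and every other gene list, the shares over all genes are 21.9% called, 12.3% higher and 9.66% lower. Cep41 (ENSMUSG00000029790), a Joubert syndrome gene whose protein is required for polyglutamylation of axonemal tubulin, had the highest fold change of the family. Its levels were 33.1, 26.6, 52.8 and 52.3 CPM, so the Foxn3KO libraries nearly coincided and the wild-type libraries differed from each other by 0.31 on the log2 scale. The means were 29.9 ± 4.57 CPM (SD, n = 2) in wild-type and 52.6 ± 0.319 CPM (SD, n = 2) in Foxn3KO. On the log2 scale this is a rise of 0.82 (SE 0.0811, edgeR adjusted p = 6.28e-07). The value was 0.67 against wild-type replicate 1 alone and 0.98 against wild-type replicate 2 alone. Cep162 (ENSMUSG00000056919), which marks the distal end of the centriole for transition zone assembly, measured 42.8, 40.7, 59.4 and 59.4 CPM. It rose by 0.51 on the log2 scale (SE 0.0581, edgeR adjusted p = 3.81e-06).

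The promoters of the members with the largest changes were examined for letters known to be bound by RFX factors, which regulate cilia genes, and by forkhead factors. Promoter windows from RefSeq, build GRCm38.p6, were found by symbol for 32 of the 38 members. The members without an entry included Cep120, Cep15, Cep192, Cep350 and Cep76. The submitters' processing notes name another build (mm39), so the coordinates below belong to the RefSeq table alone. The X-box of RFX factors was read as the arms GTTNCC and GGNAAC with 1, 2 or 3 bases between them. The forkhead motif was read as GTAAACA and the alternative forkhead motif as GACGC, all on both strands. Shown are the 250 bases before the annotated start of Cep41, Cep126 and Cep19, which rose most, and of Cep295, which fell most, with every motif match in capitals.
Cep41 (chr6:30693750-30693999, minus strand): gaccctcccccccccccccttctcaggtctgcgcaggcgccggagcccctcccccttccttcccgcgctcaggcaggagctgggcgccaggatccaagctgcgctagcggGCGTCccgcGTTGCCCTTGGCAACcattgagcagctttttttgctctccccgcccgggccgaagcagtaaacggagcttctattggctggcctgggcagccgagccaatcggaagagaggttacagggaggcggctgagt
Cep126 (chr9:8134447-8134696, minus strand, the first of its 2 annotated starts): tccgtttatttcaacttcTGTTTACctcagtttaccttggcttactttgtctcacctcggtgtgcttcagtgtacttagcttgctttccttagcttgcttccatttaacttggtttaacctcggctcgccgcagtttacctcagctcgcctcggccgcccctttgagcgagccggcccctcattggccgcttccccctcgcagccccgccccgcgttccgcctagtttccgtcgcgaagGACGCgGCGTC
Cep19 (chr16:32099539-32099788, plus strand): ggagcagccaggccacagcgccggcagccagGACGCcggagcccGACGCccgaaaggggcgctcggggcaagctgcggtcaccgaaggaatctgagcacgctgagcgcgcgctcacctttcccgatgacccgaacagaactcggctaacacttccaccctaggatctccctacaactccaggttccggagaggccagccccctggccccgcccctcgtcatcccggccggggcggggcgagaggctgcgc
Cep295 (chr9:15357789-15358038, minus strand): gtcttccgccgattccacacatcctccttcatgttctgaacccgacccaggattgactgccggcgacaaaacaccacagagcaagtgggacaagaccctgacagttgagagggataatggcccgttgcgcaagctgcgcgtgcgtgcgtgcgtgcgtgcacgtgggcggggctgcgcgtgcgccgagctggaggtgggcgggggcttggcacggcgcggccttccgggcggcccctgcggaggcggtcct

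Cep41 and Cep19 carried a full X-box, and the other 30 members with a window, which ran from 250 bases before to 50 bases after the start, did not. In Cep41 the 15 letters GTTGCCCTTGGCAAC lie 131 to 117 bases before the start, as 2 complete arms with 3 bases between them. That spacing occurs in the promoters of 19 of 27025 genes. In Cep19 the letters GTTGCCTTGGGAAC lie 23 to 36 bases after the start, outside the stretch printed above, and this spacing of 2 bases occurs in 143 of 27025 genes. With any of the 3 spacings, 0.903% of all genes had an X-box, against 2 of 12 higher members, 0 of 7 lower members and 0 of 13 members not called. The spacings of 1 and 3 were added after the Cep41 promoter had been seen, so the Cep41 match is not independent of that choice. With the planned spacing of 2 alone, 1 of 12 higher, 0 of 7 lower and 0 of 13 uncalled members had an X-box. This share was 0.529% over all genes. The arm GTTGCC alone was in 5 of 12 higher, 1 of 7 lower and 2 of 13 uncalled members, and in 14.1% of all genes. GTAAACA was in 1 member, Cep126, and in 4.05% of all genes. GACGC was in 22 of 32 members, 9 of 12 higher, 5 of 7 lower and 8 of 13 not called, and in 29.6% of all genes. The member windows were richer in G and C, with a median of 62% against 52.7% in all windows. A match is a match of letters, and binding was not measured here.

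Genes of the mother centriole, its appendages and the ciliary base also moved upwards: 6 of 9 were called higher, none was called lower, and the median log2 fold change was 0.33. The groups did not overlap in CPM for all 6, as for every called member of the family. They also did not overlap for the uncalled Cep170 and Cep350, where Foxn3KO was lower. Of all tested genes, 60.4% did not overlap, 29.9% with Foxn3KO higher and 30.5% with Foxn3KO lower. Cep19 (ENSMUSG00000035790), which recruits the small GTPase RABL2 to the ciliary base at the start of intraflagellar transport, measured 29.2, 25.4, 40.97 and 42.4 CPM. Its log2 fold change of 0.61 (SE 0.0738, edgeR adjusted p = 7.61e-06) was the largest of this list.

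The distal appendages tether the centriole to the membrane, and their Cep components Cep83, Cep89 and Cep164 all rose. Cep89 (ENSMUSG00000023072) measured 64.8, 62.6, 86.9 and 86.8 CPM, tight within each genotype, with a log2 fold change of 0.45 (edgeR adjusted p = 4.01e-06). Cep164 (ENSMUSG00000043987), which recruits the kinase TTBK2, measured 46.2, 55.1, 65.5 and 65.7 CPM, and its log2 fold change was 0.37 (edgeR adjusted p = 0.000778). Its wild-type libraries were spread, and against wild-type replicate 2 alone the value was 0.25. Cep83 (ENSMUSG00000020024), on which the other distal appendage proteins depend, measured 71.3, 60.8, 84.4 and 81.8 CPM. This was a rise of 0.33 on the log2 scale (edgeR adjusted p = 0.00114), with wild-type replicate 1 closer to the Foxn3KO libraries than wild-type replicate 2.

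Cep43, also called FOP, went from 60.7 ± 1.01 CPM in wild-type to 78.4 ± 0.588 CPM in Foxn3KO (SD of 2 libraries), a rise of 0.37 on the log2 scale. Cep128, a subdistal appendage protein, went from 48.3 ± 0.666 to 60.03 ± 0.723 CPM, a rise of 0.31. Their edgeR adjusted p-values were 4.54e-05 and 0.000472, and the spread within each genotype was small beside the difference. Cep170, another subdistal appendage protein, did not pass: it measured 197 ± 0.582 and 187 ± 0.629 CPM, a log2 fold change of -0.07 (95% interval -0.16 to 0.02). Cep350, a partner of Cep43, had -0.13 (-0.24 to -0.02, edgeR adjusted p = 0.0765), and Cep20, a Cep43 relative, had -0.02 (-0.14 to 0.10). Cep350 passed against wild-type replicate 2 alone, with -0.16 and an edgeR adjusted p of 0.00977. Subdistal appendage genes were thus found both among the risen and among the uncalled members.

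**Figure D2:**
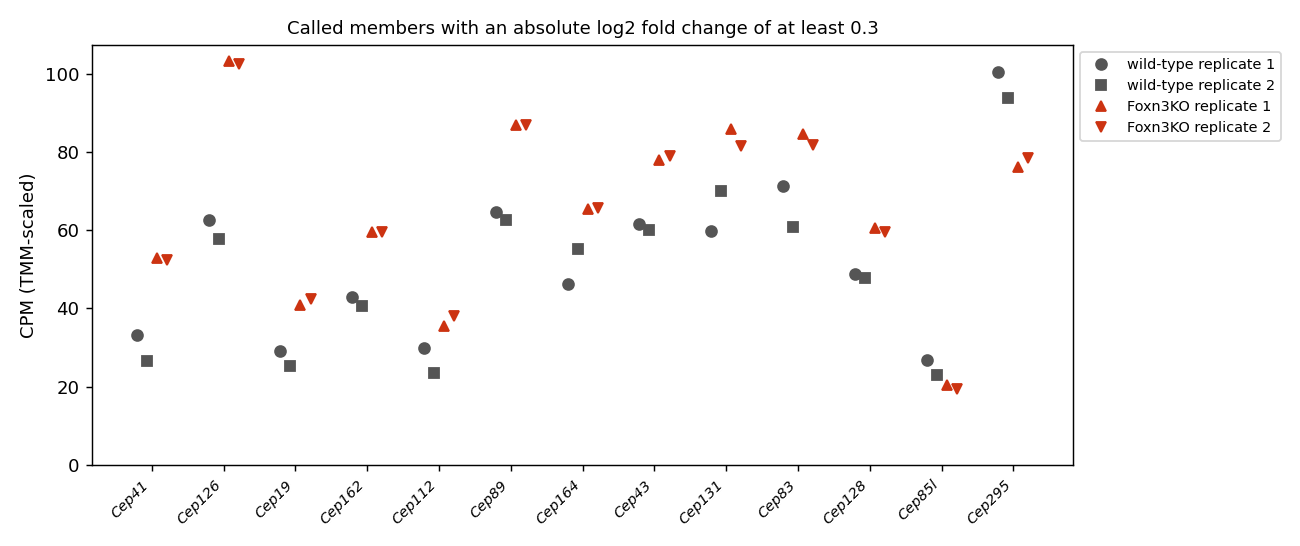
CPM, scaled by TMM factors, in each of the 4 libraries on the y axis, for 13 called members with an absolute log2 fold change of at least 0.3 on the x axis. Grey symbols are the wild-type libraries and red symbols the Foxn3KO libraries; red lies above grey for the 11 members from Cep41 to Cep128 and below it for Cep85l and Cep295.

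Centriolar satellites are granules that carry proteins to the centrosome and the cilium, and their Cep genes changed in both directions, with 2 of 4 higher and 2 lower. Cep126 (ENSMUSG00000040729) measured 62.6, 57.8, 103 and 102 CPM, with both Foxn3KO libraries far above both wild-type libraries. It rose by 0.77 on the log2 scale (SE 0.0537, edgeR adjusted p = 5.05e-09), the smallest p of the family. Cep131 (ENSMUSG00000039781), also called AZI1, measured 59.8, 69.97, 85.9 and 81.6 CPM. The rise was 0.37 on the log2 scale (SE 0.0651, edgeR adjusted p = 0.000464), with 0.26 against wild-type replicate 2 alone and 0.49 against wild-type replicate 1 alone. Cep72 fell from 40.4 ± 0.605 to 33.9 ± 0.988 CPM and Cep70, which binds gamma-tubulin, from 43.99 ± 0.58 to 38.1 ± 1.52 CPM (SD of 2 libraries). Their log2 fold changes were -0.25 and -0.21 (edgeR adjusted p = 0.0083 and 0.0241). Neither fall passed in DESeq2, with adjusted p-values of 0.0531 and 0.124, and neither passed without Foxn3KO replicate 1 (-0.22 and -0.17, edgeR adjusted p = 0.125 and 0.285). Without Foxn3KO replicate 2, Cep70 also missed the threshold (-0.24, edgeR adjusted p = 0.0685).

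Centriole duplication and elongation genes leaned the other way. Of 13, 4 were called lower, 1 higher and 8 not called, with a median log2 fold change of -0.08. Cep295 (ENSMUSG00000046111), required to convert new centrioles into centrosomes, measured 100.4, 93.9, 76.1 and 78.3 CPM, so every Foxn3KO library was below every wild-type library. The log2 fold change of -0.33 (SE 0.0521, edgeR adjusted p = 0.000144) was the lowest of the family. In the GENCODE M21 annotation 19.1% of its exonic bases lie under exons of genes on the opposite strand, among them Taf1d, and whether the authors counted by strand is not given in the sources used here. Cep192 (ENSMUSG00000024542), the scaffold that recruits Plk4 to the centriole wall, measured 106, 96.2, 79.7 and 84.9 CPM, a log2 fold change of -0.29 (SE 0.0558, edgeR adjusted p = 0.0009).

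Cep57 (ENSMUSG00000031922), a protein around the centriole that acts with Cep63 and Cep152, measured 112, 99.4, 91.6 and 90.02 CPM. This fall was a log2 fold change of -0.22 (edgeR adjusted p = 0.00913). The value was -0.13 against wild-type replicate 2 alone, and without Foxn3KO replicate 2 the call was lost (-0.20, edgeR adjusted p = 0.0704). Cep76, which limits centriole reduplication, had 42.7 ± 4.17 CPM in wild-type and 35.3 ± 0.675 CPM in Foxn3KO (SD of 2 libraries), a fall with a log2 fold change of -0.27 (edgeR adjusted p = 0.0105). Cep76 did not pass against wild-type replicate 2 alone (-0.17, edgeR adjusted p = 0.0731) or without Foxn3KO replicate 1 (-0.25, edgeR adjusted p = 0.0642). The 1 member of this list that rose was Cep135, a cartwheel protein, with 54.7 ± 3.12 and 64.1 ± 1.04 CPM and a log2 fold change of 0.23 (edgeR adjusted p = 0.0076, and 0.0815 without Foxn3KO replicate 1, where the value was 0.22).

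The 8 duplication genes that did not pass included both direct partners of Cep57. Cep63 had a log2 fold change of -0.01 (95% interval -0.13 to 0.11) and Cep152, which with Cep192 positions Plk4, had -0.12 (-0.27 to 0.03). Cep120, an elongation factor, had 0.12 (0.02 to 0.23, edgeR adjusted p = 0.084), and passed only against wild-type replicate 1 alone (0.16, edgeR adjusted p = 0.00595). The remaining values were -0.04 for Cep97, which caps the centriole together with CP110, -0.04 for Cep78, a gene of cone-rod dystrophy, -0.06 for Cep85, -0.08 for Cep57l1 and -0.09 for Cep44. Transcription of many duplication genes follows the cell cycle, so a list of 33 cell cycle genes is given beside them. It summed to 6218 and 6058 CPM in the wild-type libraries and to 6017 and 6002 CPM in the Foxn3KO libraries, with a median log2 fold change of -0.05, 5 members called higher and 8 lower. The part of this list in the falls was not tested.

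Cep55, which recruits the abscission machinery to the midbody of dividing cells, fell from 71.8 and 66.9 CPM in the wild-type libraries to 57.1 and 55.5 CPM in the Foxn3KO libraries. The fall was a log2 fold change of -0.30 (SE 0.0564, edgeR adjusted p = 0.000814). Cep85l, a gene of neuronal migration, measured 26.9, 23.1, 20.4 and 19.5 CPM, with a log2 fold change of -0.32 (edgeR adjusted p = 0.0121). That call was lost in DESeq2 (adjusted p = 0.0618), against wild-type replicate 2 alone (-0.21, edgeR adjusted p = 0.102) and without Foxn3KO replicate 2 (-0.29, edgeR adjusted p = 0.0734). For Cep85l, 7.26% of its exonic bases lie under genes on the opposite strand, Pln among them. Cep112 went the other way, with 29.9, 23.6, 35.6 and 38.1 CPM and a log2 fold change of 0.46 (SE 0.0904, edgeR adjusted p = 0.0011). Its wild-type libraries differed by 0.34 on the log2 scale, the widest spread within a genotype in the family, and its value was 0.30 against wild-type replicate 1 alone and 0.64 against wild-type replicate 2 alone.

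Of the genes that hold the 2 centrosomes together, Cep68 had 79.1 ± 0.854 CPM in wild-type and 69.3 ± 1.79 CPM in Foxn3KO (SD of 2 libraries), a fall with a log2 fold change of -0.19 (edgeR adjusted p = 0.0128, DESeq2 adjusted p = 0.0568). Without Foxn3KO replicate 1 the value was -0.16 (edgeR adjusted p = 0.207) and without Foxn3KO replicate 2 it was -0.21 (edgeR adjusted p = 0.0672), both short of the threshold. Cep250, the linker protein C-Nap1, had -0.07 (95% interval -0.18 to 0.04) and passed only against wild-type replicate 2 alone (-0.13, edgeR adjusted p = 0.0182). Cep170b, Cep95 and Cep15 had log2 fold changes of -0.03, 0.04 and 0.03, and none passed. The intervals of Cep170b and Cep95 stayed within -0.15 and 0.17, and that of Cep15 within -0.16 and 0.21.

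Cep83 and Cep83os were set side by side because their annotated starts lie 177 bases apart on opposite strands. This pair was chosen once the values were known. The stretch between the starts is shown because both transcripts begin at its ends. On the plus strand it reads from the Cep83os start to the Cep83 start, the reverse of the order in its label. It has no full X-box, and its capitals mark an alternative forkhead match and, at the Cep83 end, an X-box of 14 letters with 1 mismatch. The windows of both Cep83 and Cep83os hold such a match. An X-box of this spacing with at most 1 mismatch was in 3 of 12 higher, 0 of 7 lower and 2 of 13 uncalled members. It was in 2.89% of all genes.
Cep83 to Cep83os (chr10:94688614-94688789, build GRCm38.p6, plus strand): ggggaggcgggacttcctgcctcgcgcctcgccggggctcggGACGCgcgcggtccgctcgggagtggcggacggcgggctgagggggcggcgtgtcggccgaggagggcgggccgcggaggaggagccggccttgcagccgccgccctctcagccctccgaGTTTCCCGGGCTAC
Cep83os measured 22.9, 24.2, 20.2 and 20.3 CPM, with a log2 fold change of -0.22 that did not pass (edgeR adjusted p = 0.0537). The ratio of Cep83 to Cep83os counts within a library does not depend on library scaling. It was 3.11 and 2.51 in the wild-type libraries and 4.19 and 4.04 in the Foxn3KO libraries, with no overlap, a difference of 0.56 on the log2 scale. With 2 libraries against 2, an exact permutation test cannot give a two-sided p under 0.05, and none is printed.

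Paralog pairs showed smaller shifts in the same kind of ratio. Cep57 had 4.16 and 3.93 counts per count of Cep57l1 in the wild-type libraries and 3.78 and 3.59 in the Foxn3KO libraries. For Cep85 over Cep85l the ratios were 2.09 and 2.41 in wild-type and 2.58 and 2.80 in Foxn3KO. For Cep170 over Cep170b the groups overlapped, with 2.27 and 2.05 in wild-type and 2.097 and 2.09 in Foxn3KO. The genotype differences on the log2 scale were -0.14, 0.26 and -0.04.

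Levels per gene length were read from the FPKM values of the authors. Mean wild-type levels ran from 2.58 FPKM for Cep83os to 25.2 FPKM for Cep57, with a median of 8.78 FPKM. Cep57 and Cep55 (23.8 FPKM) led in wild-type. Cep19 rose from 15.5 to 23.7 FPKM, and in the Foxn3KO libraries it stood above Cep57 (21.7 FPKM) and Cep55 (19.3 FPKM). Cep41 went from 5.98 to 10.5 FPKM. The family summed to 363 and 352 FPKM in the wild-type libraries and to 384.1 and 383.9 FPKM in the Foxn3KO libraries. Across the 38 members, Spearman's rho between wild-type FPKM and log2 fold change was 0.0502, a description over points that share the same libraries.

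**Figure D3:**
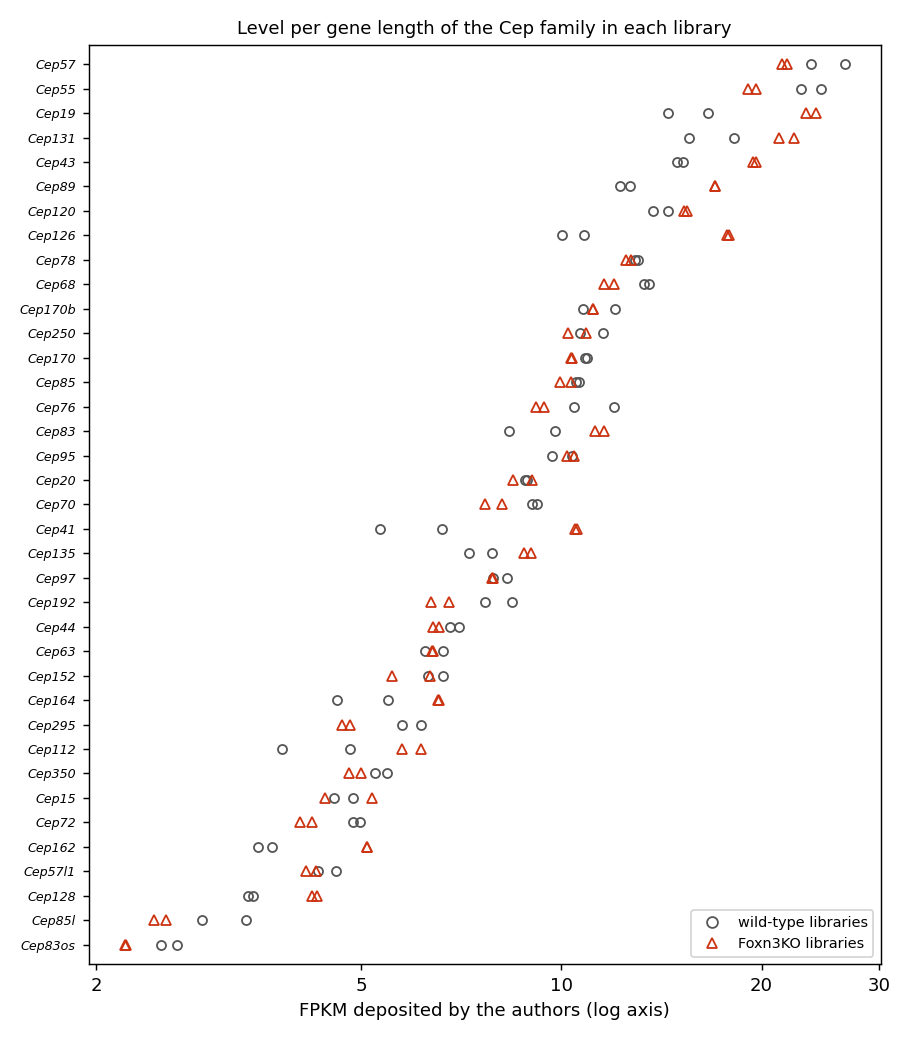
FPKM deposited by the authors on the x axis (log scale) for 37 members on the y axis, ordered by their mean over all libraries. Grey circles are the 2 wild-type libraries and red triangles the 2 Foxn3KO libraries. The red triangles of Cep19 lie to the right of those of Cep57 and Cep55, which lead among the grey circles.

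Replicates differed less within Foxn3KO than within wild-type. The median absolute log2 ratio between replicates over the members was 0.0401 in Foxn3KO and 0.0914 in wild-type, where 1 embryo differed in sex. For 29 of 38 members the absolute log2 fold change was larger than both of that member's own ratios between replicates. The share of all tested genes that meet this rule was not computed, so the count cannot show a trait of the family. Without wild-type replicate 1, which left 3 libraries with Xist near 0, 23 members were called, 13 higher and 10 lower, where 24.3% of all genes were called, 13.4% higher and 10.9% lower. These included 20 of the 22, without Cep76 and Cep85l and with Cep250, Cep350 and Cep83os added. All 22 kept their sign in the fits without either wild-type library. Their groups did not overlap in CPM, so leaving out 1 library could not be expected to change a sign. In these fits the single wild-type library is assumed to vary like the Foxn3KO libraries.

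**Figure D4:**
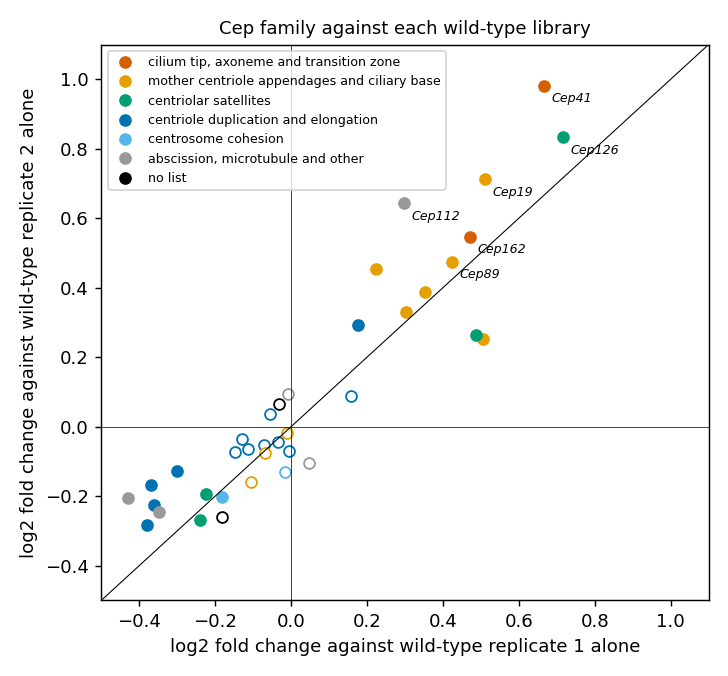
Log2 fold change of 37 members against wild-type replicate 1 alone (x axis) and against wild-type replicate 2 alone (y axis), with the line of equal values. Filled points were called with all 4 libraries and colours mark the role list. All filled points lie in the upper right or lower left quadrant, with Cep41 at 0.67 and 0.98. The groups of the called members did not overlap in CPM, which largely fixes these quadrants.

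Other centrosome and basal body genes also changed in both directions. They were listed from known function, but with earlier results of these data known. Of 56 tested, 24 were called (42.9%), 14 higher and 10 lower, with a median log2 fold change of -0.01. Across the table, 21.9% of genes were called, 12.3% higher and 9.66% lower. Cetn2, a centrin of the basal body, rose by 0.79, Dcdc2a, a doublecortin protein of the cilium, by 1.22 and Odf2, a component of subdistal and distal appendages, by 0.47. Those that fell included Plk4 (-0.25, edgeR adjusted p = 0.0043) and Stil (-0.22, edgeR adjusted p = 0.0138), which start duplication with Cep152 and Cep192, and Rttn (-0.31, edgeR adjusted p = 0.00486). Plk4, Stil and Rttn were picked with their values known. The other genes of the list called lower were Nedd1, Cntrl, Tubgcp4, Tubgcp5, Tubgcp6, Haus2 and Haus6, with values from -0.26 to -0.16. In the same list Cntrob (-0.12), Sass6 (-0.08) and Cenpj (-0.02) did not pass. Ccp110 (0.15, edgeR adjusted p = 0.0304) and Poc1b (0.29, edgeR adjusted p = 0.00514) were called higher. Of 12 tested genes of the deuterosome and multiciliated cell programme, 5 were called higher, none lower and 7 not called, with a median log2 fold change of 0.08 and a lowest value of -0.28. Of the 5, Rfx3 rose by 0.40, Rfx2 by 1.41 and Foxj1 by 4.45. Ccno, which drives centriole amplification in those cells, had 40 and 27 counts in the wild-type libraries and 342 and 249 in the Foxn3KO libraries. Deup1, the scaffold of the deuterosome and a paralog of Cep63, had 12 and 10 counts against 38 and 35, a log2 fold change of 1.73 (edgeR adjusted p = 0.00353), whereas Cep63 had -0.01. Mcidas was not among the genes tested.

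In the authors' deposited table, 18 of the 38 members passed an adjusted p of 0.05 (13 rose and 5 fell), where 16% of all genes with an adjusted value did, 10.1% higher and 5.92% lower. All 18 were among the 22 called here by edgeR. The 4 others were Cep68, Cep70, Cep72 and Cep85l, each lower in Foxn3KO, so the rises were called in both and the count of falls differed. DESeq2 run on the counts called the same numbers, 13 higher and 5 lower, where 15.2% of all genes were called, 9.64% higher and 5.55% lower.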

How the data were processed

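Whole-number read counts per gene for 4 retinal libraries were taken as deposited by the authors, without normalization. Libraries came from total RNA with a directional kit, per the labels' protocols. DESeq2 and build mm39 are named in the submitters' processing notes. The aligner, counter, annotation and use of strand are not given in the sources used here. FPKM values, deposited by the authors for each library, were used for levels per length. The authors' deposited log2 fold changes, their standard errors, p-values, adjusted p-values and mean normalized signal were used only for comparison.

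Of 18472 entries 1 repeated gene identifier was dropped. Genes passing filterByExpr (17300) were scaled with TMM and went through edgeR 4.0.16 under R 4.3.3 (edgeR 4 quasi-likelihood fit, genotype only, Benjamini-Hochberg adjustment, threshold 0.05). Standard errors were derived from the F statistic. On simulated counts for 17300 genes with 200 changed, 97% of 1.5-fold and 100% of 2-fold changes were recovered, and 5 unchanged genes were called. Smaller changes were not simulated, so this gives no recovery for the 19 called members under 1.5-fold. The simulation also gave both genotypes the same spread. Limits of 3 counts, 0.103 to 0.134 CPM, lie far below every member, and p-values measure the spread between these embryos. In a fit with a single library in a group, that spread comes from the other group alone. Alternatives were RLE and total count scaling, 2 other filters, DESeq2 1.42.0, limma-voom (limma 3.58.1), the earlier edgeR fit, a replicate block and leaving out each library. All members were counted and 37 named (the other is not reported here), with full values for called members at an absolute log2 fold change of at least 0.3 and the 3 highest by FPKM. Members, lists and tests were chosen with earlier results of these data known. Figures used matplotlib 3.10.9.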

Additional observations from a re-analysis of the deposited data

How the results depend on the processing

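The 22 calls among the Cep members were within 1.5 times under each alternative, from 17 to 23 when a library was left out. DESeq2 called 18. Over all genes, DESeq2 called 2425 genes instead of 3795, and leaving out a library gave 2323 to 5067; the cause was not tested. The median log2 fold change of the members was -0.0565 under total count scaling and -0.0412 to -0.0243 without 1 library. DESeq2 called 2 of 4 satellite genes and 0 of 2 cohesion genes. Leaving out a library gave 3 to 6 duplication, 2 to 4 satellite, 0 to 2 cohesion and 2 to 3 abscission and other genes, and 15 to 30 centrosome genes not named Cep; fits without a Foxn3KO library gave the low ends, that of the abscission list also without wild-type replicate 1.

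Replicate differences had a correlation of 0.00526 between genotypes over 17300 genes. This cannot exclude that same-numbered libraries shared a litter or batch, which the labels do not give. With the replicate block 23 members were called, the 22 and Cep83os, and 4222 of all genes. Over the 37 named members and the 8 alternatives that kept all libraries, 288 results kept direction and side of the threshold, 4 calls were lost (DESeq2: Cep68, Cep70, Cep72, Cep85l) and 4 gained (Cep83os 3 times, Cep350 once). Leaving out a library lost 11, gained 4 and reversed 6, all 6 in uncalled members: Cep95 (-0.0095 to 0.0932), Cep15 (-0.0893 to 0.14), Cep63 (-0.0563 to 0.0364), Cep20 (-0.0691 to 0.0305) and Cep170b (-0.106 to 0.0475). Cep135 and Cep57 were lost only without a Foxn3KO library.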
